A study of Mus musculus with 24 samples.

Results

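The 10 genes described here, mt-Nd1, mt-Nd2, mt-Nd4, mt-Nd5, mt-Nd6, mt-Co1, mt-Co2, mt-Co3, mt-Atp6 and mt-Cytb, lie on the mouse mitochondrial DNA and code for core subunits of the respiratory chain and the ATP synthase. They were listed by name and matched by symbol to Ensembl identifiers. They are 10 of the 46517 gene entries of the count table and 10 of the 37 genes of the mitochondrial DNA. Of these 10, 7 had enough uniquely assigned reads to pass the filter on low counts, and mt-Co2, mt-Atp6 and mt-Co3 had 0 counts in all 24 libraries.

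The cells were βTC3, which come from a mouse insulinoma and serve as a model of the pancreatic beta cell. The cells carried the plasmid PB-31 with the miR-23b cluster, PB-31 with miR-137, or PB-31 as the control. The miR-23b and miR-137 lines were each sampled after 7 d with doxycycline (DOX) at 2 µg/ml (7 d DOX), after 7 d with DOX and 7 further days without it (withdrawn), and after 7 d without DOX (no DOX). The control line was sampled after 7 d DOX and with no DOX. Each of the 8 groups had 3 libraries, made from cells plated in triplicate, so the p-values below measure the spread between such libraries, which may be technical. The labels name neither a withdrawn control culture nor an untreated one of the same length as the withdrawn ones, and they carry no date, plate or run, so DOX cannot be told apart from anything else that the cultures of a group shared. The sources used here do not say whether a line is 1 clone or a pool of cells.

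Mitochondrial DNA is transcribed from both strands into long precursors that are cut into single mRNAs, rRNAs and tRNAs. The heavy-strand precursor starts next to the rRNA genes mt-Rnr1 and mt-Rnr2 and carries all of the listed genes except mt-Nd6, which is read from the opposite (light-strand) precursor. Most of the mRNAs receive short poly(A) tails and are held by the LRPPRC-SLIRP complex, and the mRNAs are translated on the mitochondrial ribosome. In beta cells, ATP made by the respiratory chain couples glucose to insulin release. DOX belongs to the tetracyclines, antibiotics that act on the bacterial ribosome and also slow translation on the mitochondrial one.

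On GRCm38, mt-Nd1 (ENSMUSG00000064341) lies at chrM:2751-3707, mt-Nd2 (ENSMUSG00000064345) at chrM:3914-4951, mt-Co1 (ENSMUSG00000064351) at chrM:5328-6872, mt-Co2 (ENSMUSG00000064354) at chrM:7013-7696, mt-Atp6 (ENSMUSG00000064357) at chrM:7927-8607 and mt-Co3 (ENSMUSG00000064358) at chrM:8607-9390. mt-Nd4 (ENSMUSG00000064363) follows at chrM:10167-11544, mt-Nd5 (ENSMUSG00000064367) at chrM:11742-13565 and mt-Cytb (ENSMUSG00000064370) at chrM:14145-15288. mt-Nd6 (ENSMUSG00000064368), at chrM:13552-14070, is on the other strand and overlaps the end of mt-Nd5. All are annotated as protein-coding.

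The sequences below are those that some members share with nuclear copies, a property set beside their counts. Each is 30 bases long, read 5′ to 3′ in the sense of the gene, from the GENCODE M21 annotation of GRCm38. The first bases of mt-Co2, mt-Atp6 and mt-Co3 stand beside those of annotated nuclear copies on the minus strand of chromosome 1. The pair of mt-Co1 and Gm29216 starts at base 1054 of mt-Co1, with capitals at the bases that differ. Counted from 1 at the first base of mt-Co1, the differences are T1056A, C1057T, A1059G, A1060G, C1062A and A1066T.
mt-Co2 chrM:7013-7042: atggcctacccattccaacttggtctacaa
Gm28661 chr1:24615536-24615565: atggcctacccattccaacttggtctacaa
mt-Atp6 chrM:7927-7956: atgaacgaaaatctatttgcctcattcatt
Gm10925 chr1:24614622-24614651: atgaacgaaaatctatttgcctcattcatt
mt-Co3 chrM:8607-8636: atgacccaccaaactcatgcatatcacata
Gm28437 chr1:24613942-24613971: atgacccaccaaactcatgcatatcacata
mt-Co1 chrM:6381-6410: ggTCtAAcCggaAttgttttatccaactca
Gm29216 chr1:24616168-24616197: ggATtGGcAggaTttgttttatccaactca

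The copies were identical over 681 bases for mt-Co2 and Gm28661, 678 bases for mt-Atp6 and Gm10925, and 783 bases for mt-Co3 and Gm28437. A read that lies within such a stretch aligns to both places and is not counted in either gene. Of all 50-base windows of mt-Co2, 100% also occurred in a transcript outside the mitochondrial DNA, as did 99.53% of those of mt-Atp6 and 99.86% of those of mt-Co3. The share was 62.23% in mt-Nd4, whose first 876 bases match Gm28439, and 51.14% in mt-Co1. Of the windows of mt-Co1, 430 occurred in Gm29216 and 411 in Gm13340 on chromosome 2. With windows of 100 bases the share was 60.75% in mt-Nd4 and 30.84% in mt-Co1. The 50-base share was 8.19% in mt-Nd2 and 7.606% in mt-Nd5, and it was 0 in mt-Nd1, mt-Nd6 and mt-Cytb. Only annotated transcripts were searched, not the rest of the nuclear genome, so each share is a lower bound. Whether shared sequence sets the counts of 0 was not tested.

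**Figure D1:**
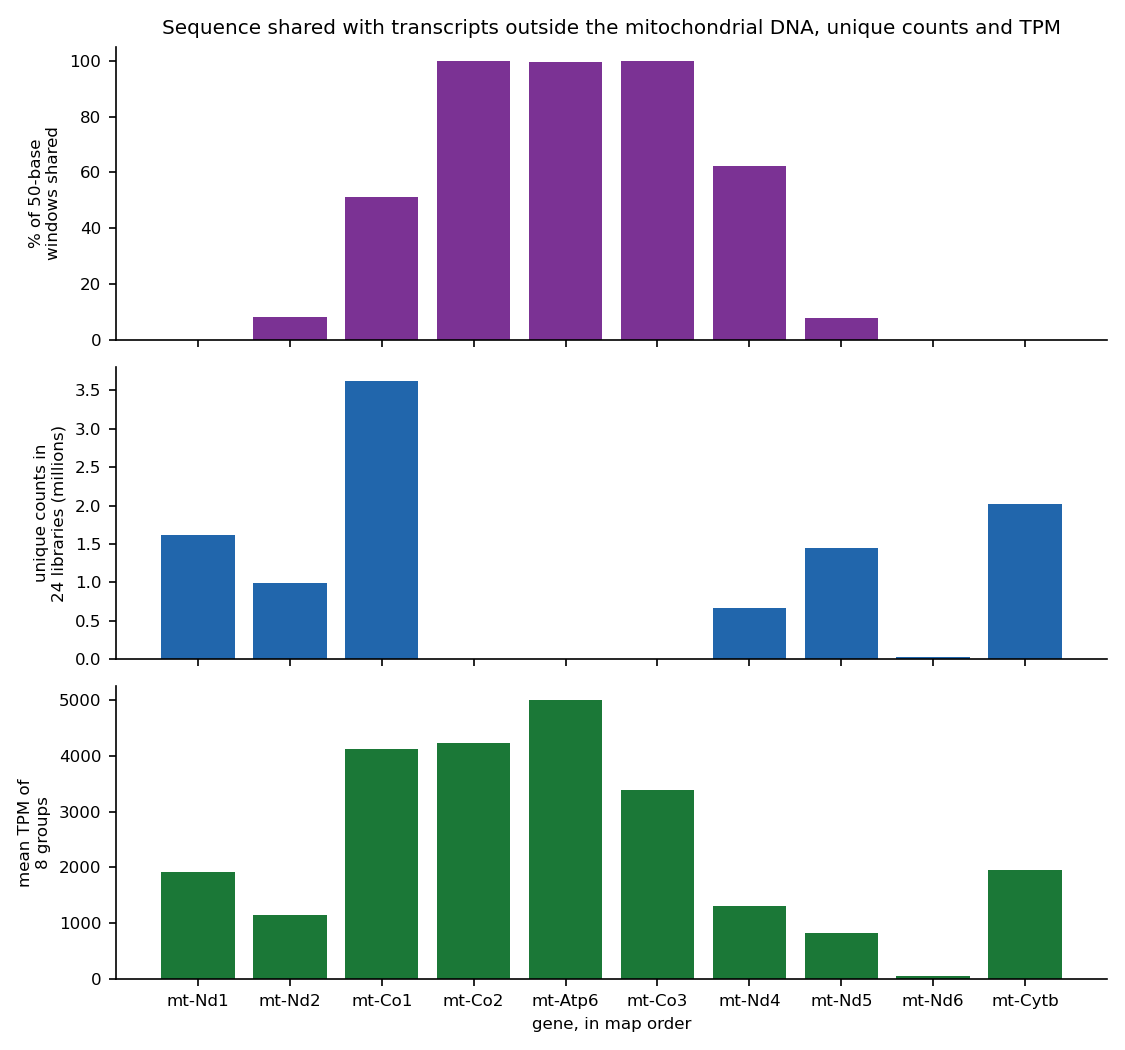
For each of the 10 genes in map order, the bars give the percent of 50-base windows shared with transcripts outside the mitochondrial DNA, the unique counts summed over 24 libraries on a scale of 1e6 counts, and the mean TPM of the 8 groups. The 3 genes with 99.53% to 100% shared windows have no counts but 3383 to 4995 TPM.

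The ends of the coding sequences are shown for the 3 members that end in an incomplete stop codon, with mt-Nd1 for comparison. Capitals mark the stop codon of mt-Nd1 and the single T left over at the end of the others, where the poly(A) tail of the mRNA completes the stop.
mt-Nd1 chrM:3678-3707: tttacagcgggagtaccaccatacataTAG
mt-Nd4 chrM:11515-11544: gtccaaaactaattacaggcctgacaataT
mt-Co3 chrM:9361-9390: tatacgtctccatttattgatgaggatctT
mt-Cytb chrM:15259-15288: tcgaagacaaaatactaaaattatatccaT

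The libraries held 15759849 to 24144737 reads counted in genes, and 25.4% to 27.7% of all reads aligned to more than 1 place. As a check of the labels, Mir23b averaged 53.2 ± 3.17 CPM (of all gene counts) in miR-23b cells with 7 d DOX and 0.154 ± 0.0839 with no DOX, and Gm26871, the host gene of miR-137, averaged 122.7 ± 3.11 and 4.35 ± 0.389 in miR-137 cells (SD, n = 3). The Mir137 entry itself had 0 CPM in every library, so only Gm26871 marks the miR-137 line here. All 10 beta cell markers checked, among them Ins1, Ins2 and Pdx1, were tested, and their summed level lay between 12620 and 18170 CPM. Markers of exocrine, leukocyte, endothelial and fibroblast cells summed to at most 4.81 CPM per list, with 2 of 6 exocrine and 1 of 5 leukocyte markers at 0 in every library. In bulk RNA, fewer cells of a type and less RNA per cell cannot be told apart.

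Levels of different genes were compared per length, as TPM from the authors' deposited table. That table gives both members of an identical pair nearly the same value: mt-Atp6 stood at 4937 TPM and Gm10925 at 4962 TPM in control cells with no DOX. The mean over the 8 groups was 4995 TPM for mt-Atp6, 4239 for mt-Co2, 4129 for mt-Co1, 3383 for mt-Co3, 1952 for mt-Cytb and 1911 for mt-Nd1. It was 1314 TPM for mt-Nd4, 1144 for mt-Nd2, 817.8 for mt-Nd5 and 62.01 for mt-Nd6. The genes for complex IV and the ATP synthase thus stood above those for complex I, and the only light-strand member stood lowest. The libraries were polyA-selected, and the part of this selection in the low level of mt-Nd6 was not tested. Neighbours in this order kept it in all 24 libraries except mt-Co2 over mt-Co1, in 17 libraries, and mt-Cytb over mt-Nd1, in 15. These pairs were not separated beyond the spread between libraries. mt-Atp6, mt-Co2, mt-Co3, mt-Co1 and mt-Nd4 share sequence with nuclear copies that hold TPM of their own. Their places in this order therefore depend on how reads were divided between copies.

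In the control line, which carries no added miRNA, 5 of the 7 counted genes were lower with 7 d DOX and 0 were higher, against 19.3% of all 14866 genes tested that were lower and 18.5% that were higher. Calls here and below are from edgeR's quasi-likelihood F test at a Benjamini-Hochberg adjusted p below 0.05, and log2 fold changes have a standard error (SE). The median log2 fold change was -0.20 over the 7 genes and 0.01 over all genes tested. The complex I gene mt-Nd1 stood at 2999, 2441 and 2511 CPM (counts scaled to TMM-adjusted library size) with 7 d DOX, against 3768, 3924 and 4362 CPM with no DOX. All 3 DOX libraries lay below all 3 others, with a log2 fold change of -0.60 (SE 0.05, adjusted p = 4.69e-12). Its neighbour mt-Nd2, another complex I gene, had 1842, 1556 and 1638 CPM with 7 d DOX, against 2274, 2471 and 2674 CPM with no DOX. Again the groups did not overlap, and the change was -0.56 (SE 0.05, adjusted p = 3.62e-11).

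mt-Co1, the catalytic subunit of complex IV, fell less in the control line. It had 6906, 6602 and 6781 CPM with 7 d DOX, against 7596, 7580 and 8088 CPM with no DOX, without overlap, which gave a log2 fold change of -0.20 (SE 0.04, adjusted p = 2.77e-05). For mt-Nd4 the values were 1413, 1128 and 1161 CPM with 7 d DOX, against 1402, 1544 and 1612 CPM with no DOX. Replicate 1 with DOX lay above the lowest untreated library, so the groups overlapped, and the change was -0.30 (SE 0.05, adjusted p = 2.34e-05). mt-Nd5 overlapped as well, at 3059, 2535 and 2768 CPM with 7 d DOX against 3001, 3238 and 3086 CPM with no DOX (-0.16, SE 0.06, adjusted p = 0.0381). That call was lost without no DOX replicate 2 (-0.13, adjusted p = 0.130) or 3 (-0.17, adjusted p = 0.0582), and without 7 d DOX replicate 2 (-0.10, adjusted p = 0.244) or 3 (-0.16, adjusted p = 0.0695). It was also lost in DESeq2 (-0.16, adjusted p = 0.152) and in the TPM table (-0.16, adjusted p = 0.0961).

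mt-Cytb, the cytochrome b of complex III and the last protein-coding gene of the heavy-strand map, did not pass the test in the control line. It stood at 4327, 3947 and 3943 CPM with 7 d DOX, against 3971, 4151 and 4392 CPM with no DOX, and the groups overlapped (-0.04, SE 0.04, adjusted p = 0.557). In the TPM table, tested with limma on log2(TPM + 1), 4 of the 10 genes were lower and 0 higher, against 16.3% lower and 16.4% higher of 15671 genes. None of the 3 uncounted genes was among them. mt-Co3 averaged 3375 ± 117.0 TPM with 7 d DOX and 3373 ± 186.8 with no DOX (SD, n = 3), mt-Co2 3968 ± 241.9 and 4209 ± 344.6, and mt-Atp6 4592 ± 464.6 and 4937 ± 449.1. Their log2 differences were 0.00, -0.08 and -0.11, with adjusted p of 0.983, 0.252 and 0.259.

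**Figure D2:**
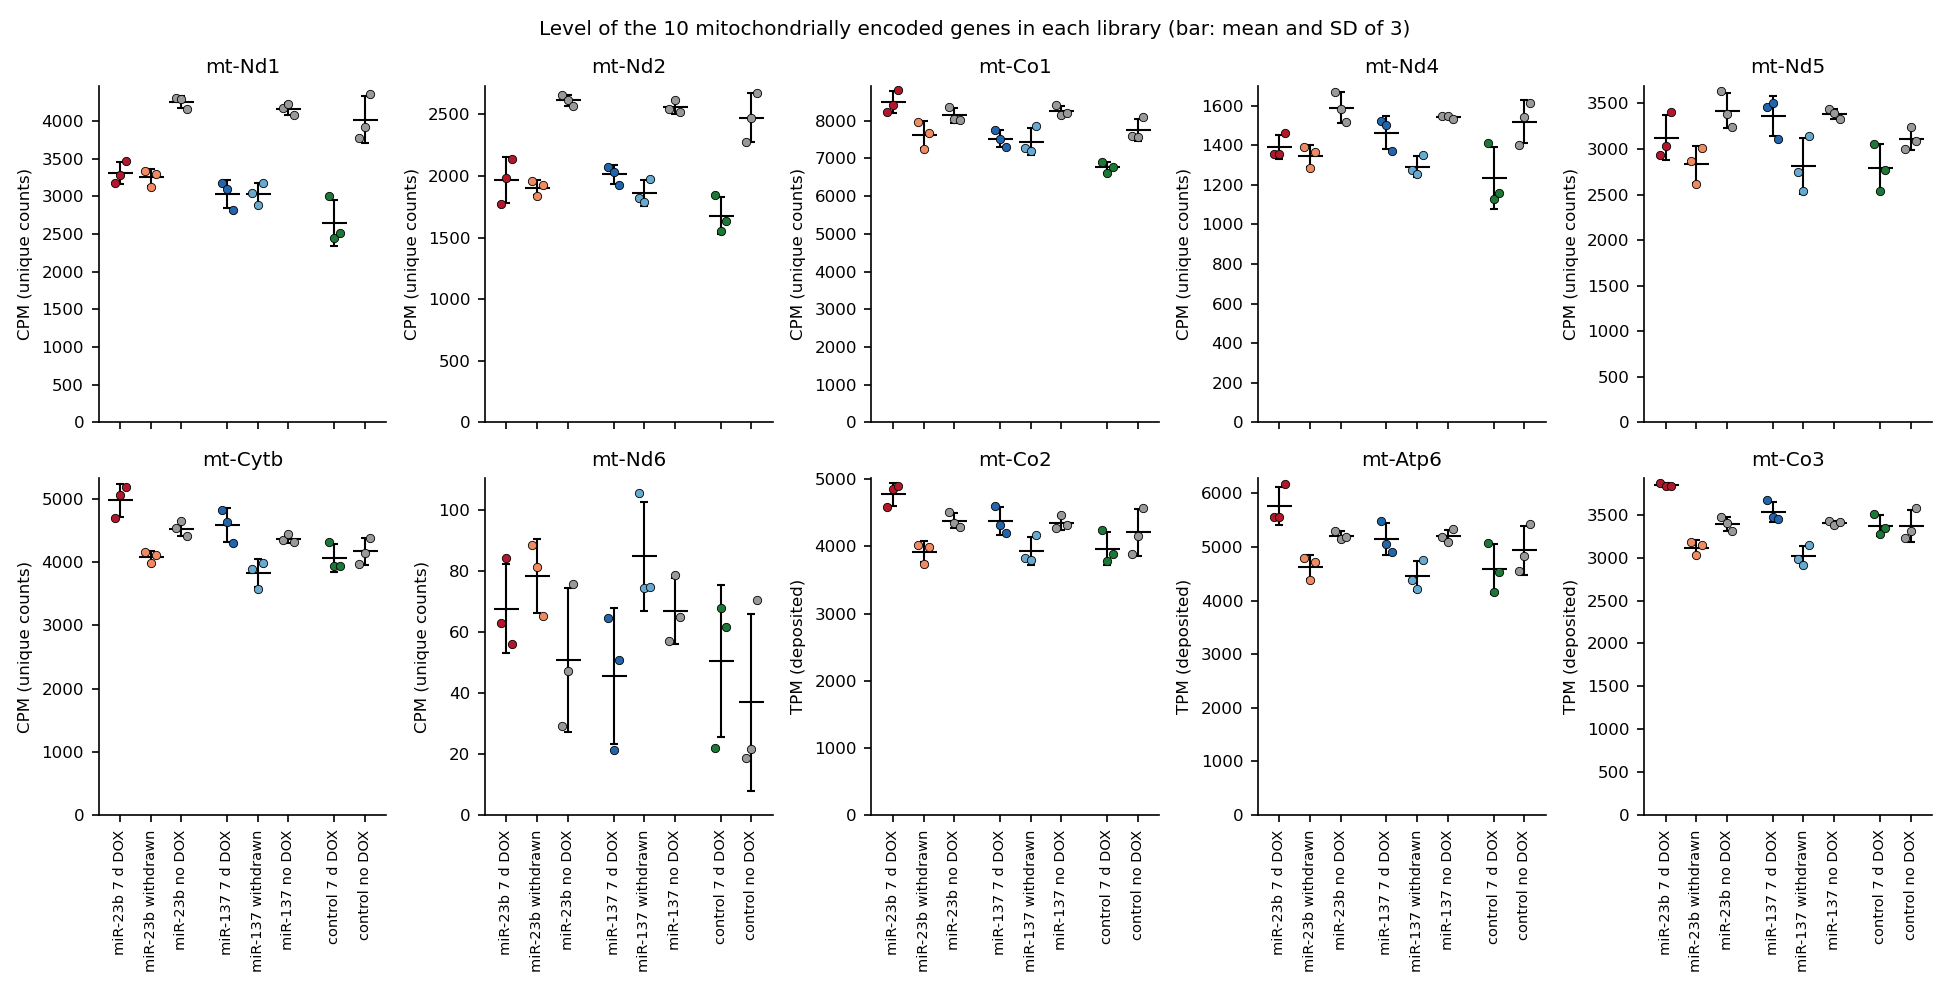
Points give each library's level of the 10 genes, in CPM from unique counts for 7 genes and in the authors' TPM for mt-Co2, mt-Atp6 and mt-Co3, by line and treatment; bars give the mean and SD of 3 libraries. mt-Nd1 and mt-Nd2 lie lower with 7 d DOX than with no DOX in every line, and lower than with no DOX after withdrawal in both miRNA lines.

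In the miR-23b line, 3 of the 7 counted genes were lower with 7 d DOX and 1 was higher, against 28.6% lower and 28.8% higher among all genes tested. mt-Nd1 had 3175, 3279 and 3468 CPM with 7 d DOX, against 4303, 4289 and 4164 CPM with no DOX (-0.36, SE 0.05, adjusted p = 1.99e-07). mt-Nd2 had 1774, 1985 and 2142 CPM with 7 d DOX, against 2655, 2617 and 2571 CPM with no DOX (-0.41, SE 0.05, adjusted p = 1.76e-08). The groups of these complex I genes did not overlap. mt-Nd4 also fell, with 1357, 1355 and 1461 CPM with 7 d DOX against 1669, 1582 and 1514 CPM with no DOX (-0.19, SE 0.05, adjusted p = 0.00261). mt-Cytb went the other way, with 4694, 5067 and 5194 CPM with 7 d DOX against 4546, 4649 and 4411 CPM with no DOX (0.14, SE 0.04, adjusted p = 0.00631). Every DOX library lay above every untreated one for mt-Cytb.

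mt-Co1 averaged 8493 ± 290.8 CPM in miR-23b cells with 7 d DOX and 8144 ± 197.5 with no DOX (SD, n = 3), and mt-Nd5 3121 ± 246.9 and 3421 ± 196.9. Neither passed, at log2 differences of 0.06 (SE 0.04, adjusted p = 0.151) and -0.13 (SE 0.06, adjusted p = 0.0596). The mt-Nd5 change was called without no DOX replicate 3 (-0.17, adjusted p = 0.0329) or without 7 d DOX replicate 3 (-0.20, adjusted p = 0.00949). By TPM, 2 of the 10 genes were lower and 3 higher, against 19.5% lower and 36.4% higher of all genes, whose median log2 change was 0.07 in this comparison. The 3 were mt-Cytb (0.27), mt-Co1 (0.20) and mt-Co3 (0.18, adjusted p = 2.70e-04), or 0.20, 0.13 and 0.11 above that median. mt-Co3 had 3875, 3832 and 3836 TPM with 7 d DOX, against 3477, 3402 and 3313 TPM with no DOX, without overlap. The call of mt-Nd4 was lost there (-0.09, adjusted p = 0.267). Beta cell markers moved in the same libraries, with a summed level of 12620 to 13280 CPM with 7 d DOX and 16100 to 16280 CPM with no DOX, and their part in these results was not tested.

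In the miR-137 line, 3 of the 7 counted genes were lower with 7 d DOX and 0 higher, against 21.8% lower and 21.0% higher among all genes tested. mt-Nd1 had 3176, 3098 and 2819 CPM with 7 d DOX, against 4165, 4230 and 4075 CPM with no DOX (-0.46, SE 0.05, adjusted p = 2.96e-09). mt-Nd2 had 2075, 2036 and 1928 CPM with 7 d DOX, against 2540, 2620 and 2519 CPM with no DOX (-0.35, SE 0.05, adjusted p = 9.74e-07). mt-Co1 had 7752, 7524 and 7293 CPM with 7 d DOX, against 8425, 8163 and 8204 CPM with no DOX (-0.14, SE 0.04, adjusted p = 0.00223). In all 3 genes each DOX library lay below each untreated one. Values for mt-Nd4 were 1463 ± 82.87 and 1543 ± 8.80 CPM (SD, n = 3), for mt-Nd5 3359 ± 216.2 and 3384 ± 55.19, and for mt-Cytb 4590 ± 266.0 and 4371 ± 63.52. None of these passed, at -0.08, -0.01 and 0.07, with adjusted p of 0.264, 0.905 and 0.189. mt-Cytb was called higher without 7 d DOX replicate 3 (0.12, adjusted p = 0.0343). The TPM table gave 3 of 10 genes lower and 0 higher, against 20.1% lower and 16.3% higher of all genes, and mt-Co2, mt-Atp6 and mt-Co3 differed by 0.01, -0.02 and 0.05 (adjusted p = 0.943, 0.888 and 0.280).

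The responses of the lines were compared directly. The miR-23b response minus the control response was positive in 3 of the 7 counted genes and negative in 0, against 18.1% positive and 19.4% negative among all genes tested. These were mt-Nd1 (0.24, SE 0.07, adjusted p = 0.00995), mt-Co1 (0.26, SE 0.05, adjusted p = 9.60e-05) and mt-Cytb (0.17, SE 0.06, adjusted p = 0.023). mt-Nd1 thus fell by less with DOX in miR-23b cells than in control cells, while mt-Co1 fell in control cells and did not pass in miR-23b cells. DESeq2 called only mt-Co1 of these, with adjusted p of 0.0563 for mt-Nd1 and 0.0688 for mt-Cytb. Without control 7 d DOX replicate 1, mt-Nd2 (0.23, adjusted p = 0.009) and mt-Nd4 (0.23, adjusted p = 0.00398) passed too, and 5 genes were called. mt-Nd2 also passed without control no DOX replicate 1 (0.22) or miR-23b 7 d DOX replicate 1 (0.22). The call of mt-Cytb was lost without control no DOX replicate 3 (0.14), control 7 d DOX replicate 2 (0.15) or 3 (0.15), miR-23b no DOX replicate 3 (0.16) or miR-23b 7 d DOX replicate 3 (0.14). In the TPM table the difference was positive in 7 of 10 genes and negative in 0, against 23.8% positive and 11.8% negative, with a median over all genes of 0.06. mt-Co2 (0.21, adjusted p = 0.0371), mt-Atp6 (0.25, adjusted p = 0.0495) and mt-Co3 (0.18, adjusted p = 0.00978) were among the 7. These values lay 0.14, 0.19 and 0.11 above that median. Over genes measured both ways, the TPM difference lay 0.10 above that of the counts at the median.

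The miR-137 response minus the control response, which uses the same control libraries, was called in 0 of the 7 genes by edgeR and by DESeq2, against 5.90% positive and 4.78% negative among all genes. At an unadjusted p below 0.05 there were 3 genes. The TPM table called 0 of 10, against 3.44% positive and 4.36% negative. mt-Nd4 came nearest (0.22, SE 0.08, adjusted p = 0.0539), followed by mt-Nd2 (0.21, SE 0.07, adjusted p = 0.0603). Without control 7 d DOX replicate 1, mt-Nd4 (0.34), mt-Nd2 (0.29), mt-Nd1 (0.25) and mt-Nd6 (-1.37) passed. mt-Nd4 and mt-Nd2 also passed without control no DOX replicate 1 (0.28 and 0.28) or without miR-137 7 d DOX replicate 3 (0.28 and 0.25), and mt-Nd6 without control no DOX replicate 3 (-1.90). Between the miRNA lines, the miR-23b response minus the miR-137 response was positive in 1 gene and negative in 0, against 16.8% positive and 18.4% negative among all genes. That gene was mt-Co1 (0.20, SE 0.05, adjusted p = 0.00236). The TPM table called 3 of 10 positive, mt-Co1 (0.33), mt-Nd1 (0.23) and mt-Cytb (0.20), and 0 negative, against 25.9% positive and 10.3% negative of all genes, whose median was 0.08. mt-Nd6 passed as well without miR-23b no DOX replicate 3 (1.38) or without miR-137 7 d DOX replicate 1 (1.36).

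Withdrawal of DOX was compared with 7 d DOX in each miRNA line. In miR-23b cells 3 of the 7 counted genes were lower after withdrawal and 0 higher, against 25.8% lower and 26.4% higher among all genes tested. mt-Cytb had 4167, 3987 and 4114 CPM when withdrawn, against 4694, 5067 and 5194 CPM with 7 d DOX (-0.29, SE 0.04, adjusted p = 5.12e-07). mt-Co1 had 7958, 7250 and 7674 CPM when withdrawn, against 8243, 8423 and 8812 CPM with 7 d DOX (-0.16, SE 0.04, adjusted p = 4.16e-04). In both genes the groups did not overlap. mt-Nd1 averaged 3252 ± 114.0 CPM when withdrawn and 3307 ± 148.8 with 7 d DOX (SD, n = 3), and mt-Nd2 1906 ± 62.03 and 1967 ± 184.4, and neither passed (adjusted p = 0.725 and 0.499). mt-Nd5 was called at -0.14 (SE 0.06, adjusted p = 0.0497) although its groups overlapped. That call was lost without 7 d DOX replicate 2 (-0.16, adjusted p = 0.051) or 3 (-0.07, adjusted p = 0.350), or withdrawn replicate 1 (-0.15, adjusted p = 0.0628) or 2 (-0.08, adjusted p = 0.315), and in DESeq2 (-0.14, adjusted p = 0.161).

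The TPM table gave 9 of the 10 genes lower in withdrawn than in 7 d DOX miR-23b cells and 0 higher, against 35.1% lower and 15.5% higher of all genes, whose median was -0.08. mt-Co2 had 4018, 3739 and 3998 TPM when withdrawn, against 4582, 4850 and 4904 TPM with 7 d DOX (-0.29, adjusted p = 1.57e-04). mt-Atp6 had 4797, 4377 and 4726 TPM when withdrawn, against 5568, 5570 and 6178 TPM with 7 d DOX (-0.32, adjusted p = 6.63e-04). mt-Co3 had 3185, 3026 and 3143 TPM when withdrawn, against 3875, 3832 and 3836 TPM with 7 d DOX (-0.30, adjusted p = 7.61e-07). In each of the 3 genes the groups were apart, and the differences lay 0.21, 0.24 and 0.23 below the median of all genes. mt-Nd1 was among the 9 as well (-0.15, adjusted p = 0.0411), although its counts did not pass.

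In miR-137 cells 3 of the 7 counted genes were lower after withdrawal than with 7 d DOX and 1 was higher, against 14.8% lower and 14.7% higher among all genes tested. mt-Cytb had 3901, 3574 and 3995 CPM when withdrawn, against 4824, 4645 and 4301 CPM with 7 d DOX (-0.26, SE 0.04, adjusted p = 7.27e-06). mt-Nd5 averaged 2808 ± 307.1 and 3359 ± 216.2 CPM (-0.26, SE 0.06, adjusted p = 0.00108), and mt-Nd4 1292 ± 52.18 and 1463 ± 82.87 (-0.18, SE 0.05, adjusted p = 0.0103). mt-Nd4 lost its call without 7 d DOX replicate 1 (-0.15, adjusted p = 0.054). mt-Nd2 was called without withdrawn replicate 3 (-0.16, adjusted p = 0.0373). mt-Nd1 averaged 3032 ± 144.4 CPM when withdrawn and 3031 ± 187.5 with 7 d DOX (SD, n = 3), a log2 difference of 0.00. The gene called higher was mt-Nd6, described below. The TPM table gave 6 of the 10 genes lower and 0 higher, against 12.9% lower and 10.3% higher, among them mt-Co2 (-0.16), mt-Atp6 (-0.21) and mt-Co3 (-0.23, adjusted p = 1.16e-04).

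After withdrawal, both miRNA lines stood below their own no DOX cultures in 6 of the 7 counted genes, all but mt-Nd6, and above them in 0. Among all genes tested, 20.6% were lower and 19.2% higher in the miR-23b line, and 21.7% lower and 21.6% higher in the miR-137 line. mt-Nd1 had 3340, 3123 and 3292 CPM in withdrawn miR-23b cells, against 4303, 4289 and 4164 CPM with no DOX (-0.39, SE 0.05, adjusted p = 1.27e-07). In the miR-137 line it had 3037, 2885 and 3174 CPM when withdrawn, against 4165, 4230 and 4075 CPM with no DOX (-0.46, SE 0.05, adjusted p = 3.12e-09). Every withdrawn library of these groups lay below every no DOX library. mt-Nd2 differed by -0.46 in each line (adjusted p = 4.56e-09 for miR-23b and 3.10e-09 for miR-137). mt-Nd5 differed by -0.27 in each, mt-Nd4 by -0.24 and -0.26, mt-Cytb by -0.15 and -0.19, and mt-Co1 by -0.09 and -0.15, in the miR-23b and miR-137 lines in that order. The groups did not overlap in any of these 6 genes. The share of all genes tested whose groups were apart is not given, here or for the other comparisons. Lack of overlap therefore does not set these genes apart from others.

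The call of mt-Co1 in withdrawn against no DOX miR-23b cells (adjusted p = 0.0342) was lost without no DOX replicate 1 (-0.07, adjusted p = 0.198) or 3 (-0.10, adjusted p = 0.0548), or without withdrawn replicate 2 (-0.05, adjusted p = 0.302) or 3 (-0.09, adjusted p = 0.0763). The TPM table gave 8 of 10 genes lower and 0 higher in the miR-23b line, against 18.8% lower and 14.7% higher of all genes. In the miR-137 line it gave 9 lower and 0 higher, against 21.0% and 14.9%. mt-Co3 averaged 3118 ± 82.26 TPM in withdrawn miR-23b cells and 3397 ± 81.71 with no DOX (-0.12, adjusted p = 0.0114), and 3016 ± 116.3 and 3406 ± 19.52 in the miR-137 line (-0.18, adjusted p = 6.40e-04). mt-Atp6 was lower in the miR-137 line (-0.22, adjusted p = 0.014) and missed the threshold in the miR-23b line (-0.17, adjusted p = 0.0597). Withdrawn and no DOX cultures also differed in time in culture, which cannot be told apart from the earlier DOX.

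Summed over the 7 counted genes, the share of gene counts in the miR-23b line was 2.39% ± 0.114 with 7 d DOX, 2.11% ± 0.0807 when withdrawn and 2.42% ± 0.0575 with no DOX (SD, n = 3). In the miR-137 line it was 2.20% ± 0.0976 with 7 d DOX, 2.03% ± 0.103 when withdrawn and 2.4% ± 0.0232 with no DOX. In control cells it was 1.94% ± 0.114 with 7 d DOX and 2.30% ± 0.109 with no DOX. The sum with 7 d DOX in miR-23b cells overlapped that of their no DOX cultures, although single genes within it moved in opposite directions. That sum leaves out mt-Co2, mt-Atp6 and mt-Co3. By TPM, all 10 genes made up 2.608%, 2.68% and 2.821% in miR-23b cells with 7 d DOX. With no DOX they made up 2.58%, 2.516% and 2.48%, without overlap, while the median of all genes moved by 0.07. Mean TPM shares with 7 d DOX and no DOX were 2.408% and 2.535% in miR-137 cells and 2.179% and 2.44% in control cells.

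Among the counted heavy-strand rRNA and protein-coding genes set in map order, the rRNA genes, which lie nearest the start of the precursor, differed most with 7 d DOX, followed by mt-Nd1 and mt-Nd2. The rRNA and tRNA genes were added to this description after their values were seen. mt-Rnr2, the large rRNA, which precedes mt-Nd1 on the map, averaged 378.0 ± 15.3 CPM in miR-23b cells with 7 d DOX and 1079 ± 15.5 with no DOX (SD, n = 3; log2 fold change -1.51, adjusted p = 4.88e-30). It differed by -1.47 in the miR-137 line and -1.48 in the control line, and after withdrawal by -0.87 in the miR-23b and -1.02 in the miR-137 line. mt-Rnr1, the small rRNA, differed by -1.23 with 7 d DOX in the miR-23b line, -0.96 in the miR-137 line and -0.90 in the control line. For mt-Rnr1 the miR-23b response minus the control response was -0.33 (adjusted p = 1.10e-05). Minus the miR-137 response it was -0.27 (adjusted p = 2.37e-04). For mt-Rnr2 neither difference was called (adjusted p = 0.619 and 0.587). Both rRNAs were higher when withdrawn than with 7 d DOX, mt-Rnr2 by 0.64 in the miR-23b line and 0.45 in the miR-137 line, and mt-Rnr1 by 0.76 and 0.60. PolyA libraries hold only the part of rRNA that the selection retains.

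The counted tRNA genes of the heavy strand did not follow that order. mt-Tt, the tRNA gene that follows mt-Cytb at the far end, differed with 7 d DOX by -1.32 in the miR-23b line (adjusted p = 0.00169), -0.57 in the miR-137 line (adjusted p = 0.158) and -1.17 in the control line (adjusted p = 0.00797). mt-Ti, which lies between mt-Nd1 and mt-Nd2, differed by -1.999, -1.272 and -1.758, mt-Tm, also between them, by -1.46, -2.11 and -1.53, and mt-Tw, just after mt-Nd2, by -1.42, -1.16 and -1.08, in the same order of lines and all called lower. These changes are larger than those of mt-Nd1 and mt-Nd2, which the same precursor carries. After withdrawal mt-Ti differed from no DOX by -1.28 in the miR-23b line and -1.12 in the miR-137 line, and mt-Tm by -0.71, which was not called, and -1.53. The tRNA counts were low, at 168 for mt-Tm, 331 for mt-Tt, 1033 for mt-Ti and 5446 for mt-Tw over all 24 libraries, and polyA selection retains only part of such RNA. Of the 8 counted mitochondrial genes outside the 10, 6 were called lower with 7 d DOX in each line and 0 higher. Among all genes tested, 28.6% were lower in the miR-23b line, 21.8% in the miR-137 line and 19.3% in the control line. The shares higher were 28.8%, 21.0% and 18.5% in that order. The miR-23b response minus the control response was negative in 2 of these 8 genes, mt-Rnr1 and mt-Tw (-0.35, adjusted p = 0.0379). It was positive in 0, against 19.4% negative and 18.1% positive among all genes tested.

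**Figure D3:**
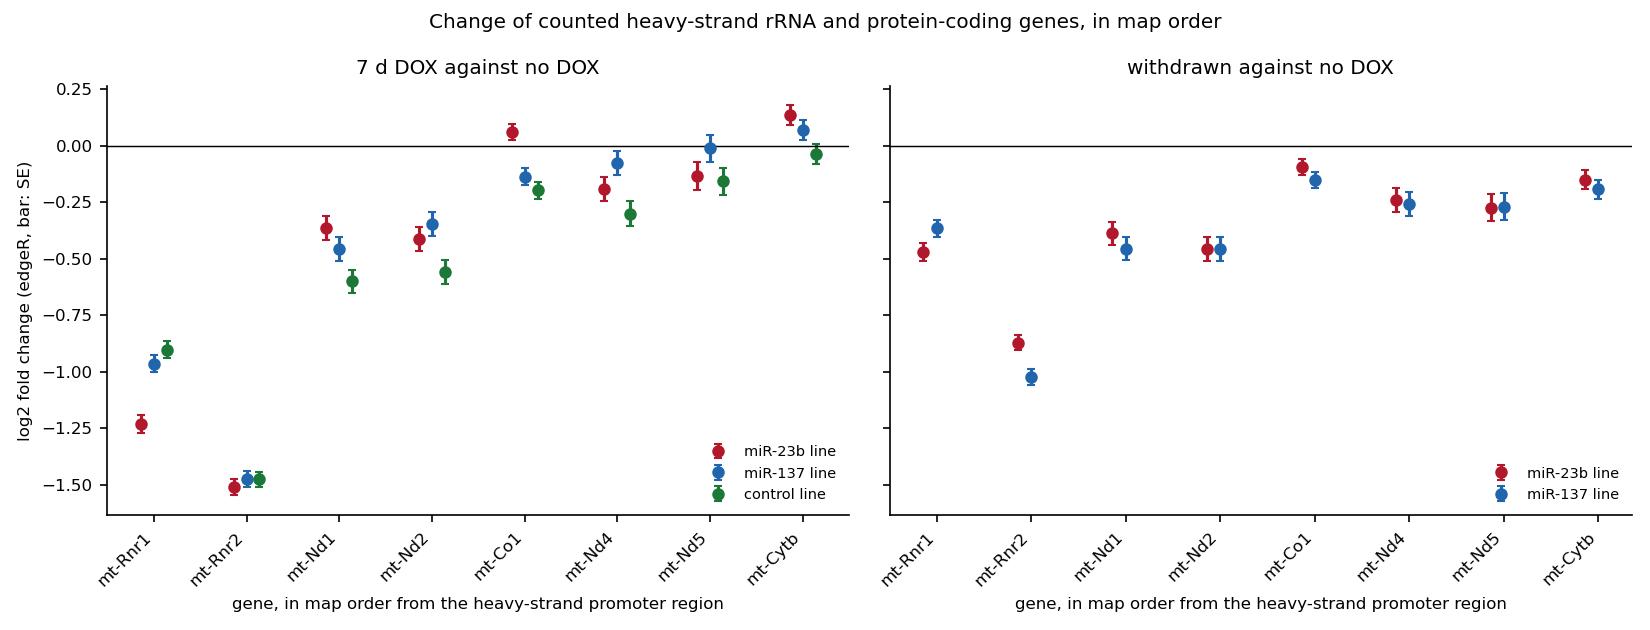
Log2 fold change (points, with SE bars) of the counted heavy-strand rRNA and protein-coding genes, without the tRNA genes, ordered along the map from the heavy-strand promoter region, for 7 d DOX against no DOX in 3 lines and for withdrawn against no DOX in 2 lines. Values run from -1.51 at mt-Rnr2 to 0.14 at mt-Cytb with 7 d DOX, and from -1.02 to -0.09 after withdrawal.

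Ratios within a library do not depend on how libraries are scaled. The log2 ratio of mt-Nd1 to mt-Cytb counts was -0.56, -0.63 and -0.58 in miR-23b cells with 7 d DOX, -0.32, -0.35 and -0.32 when withdrawn and -0.08, -0.12 and -0.08 with no DOX. The mean difference between 7 d DOX and no DOX was -0.50 there, -0.53 in the miR-137 line and -0.57 in the control line, without overlap in any line. Between withdrawn and no DOX it was -0.24 in the miR-23b line and -0.26 in the miR-137 line, again without overlap. For mt-Nd2 over mt-Cytb the differences with 7 d DOX were -0.55 in miR-23b cells, -0.42 in miR-137 cells and -0.52 in control cells, and -0.31 and -0.27 after withdrawal in the miR-23b and miR-137 lines. With 3 libraries a group an exact two-sided permutation test cannot go below p = 0.1, and each of these ratios reached 0.1 (0.125 after Benjamini-Hochberg adjustment over 35 tests).

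Between mt-Co1 and mt-Cytb the log2 ratio differed with 7 d DOX by -0.21 in miR-137 cells and -0.16 in control cells, without overlap, and the groups overlapped in miR-23b cells (-0.08). After withdrawal the mt-Co1 ratio overlapped that of no DOX cultures in both lines. A ratio shows that genes of one precursor changed unequally, not which of them stayed level.

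**Figure D4:**
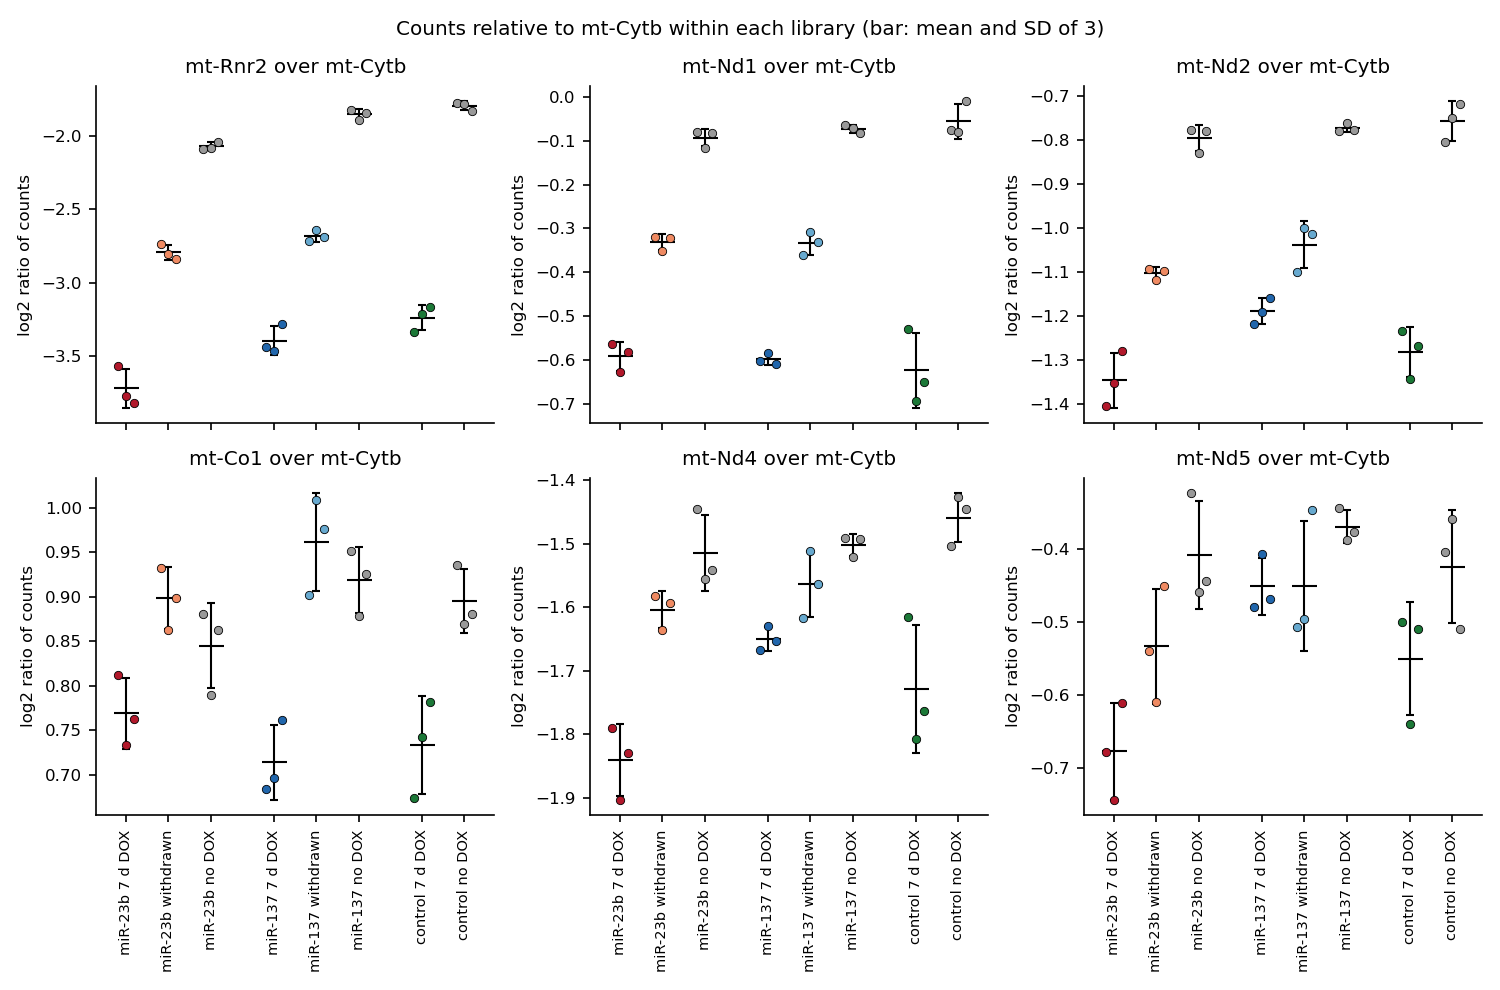
Log2 ratio of the counts of 6 mitochondrial genes to those of mt-Cytb in each library, by line and treatment, with the mean and SD of 3. For mt-Rnr2, mt-Nd1 and mt-Nd2 the withdrawn libraries lie between those with 7 d DOX and those with no DOX.

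mt-Nd6, the complex I gene of the light strand, varied more between libraries of 1 group than the others. It had 62.7, 84.0 and 55.9 CPM in the miR-23b line with 7 d DOX, 88.5, 81.2 and 65.0 when withdrawn and 29.1, 47.2 and 75.8 with no DOX. In the miR-137 line the values were 64.6, 21.2 and 50.7 CPM with 7 d DOX, 105.3, 74.1 and 74.8 when withdrawn and 56.9, 78.5 and 64.9 with no DOX. Control cells had 21.8, 67.7 and 61.4 CPM with 7 d DOX, against 18.7, 21.7 and 70.3 CPM with no DOX. Single libraries near 20 CPM stood beside others 3 times as high in the same group. The SD of log2 CPM within groups was 0.65 for mt-Nd6, at the 99.7th percentile of all genes tested, against a median of 0.08 and a range of 0.05 to 0.10 for the other 6 counted members.

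With that spread, mt-Nd6 was called once, higher in withdrawn than in 7 d DOX miR-137 cells (0.92, SE 0.31, adjusted p = 0.0213). The call was lost in DESeq2 (adjusted p = 0.196), in the TPM table (adjusted p = 0.137), without 7 d DOX replicate 2 (0.55, adjusted p = 0.215) and without withdrawn replicate 1 (0.73, adjusted p = 0.119). Several other comparisons passed when 1 library was left out: control 7 d DOX against no DOX without no DOX replicate 3 (1.32, adjusted p = 0.00423) or 7 d DOX replicate 1 (0.79, adjusted p = 0.0482), and miR-137 7 d DOX against no DOX without 7 d DOX replicate 1 (-0.94, adjusted p = 0.0398). Withdrawn against no DOX in the miR-23b line passed without no DOX replicate 3 (1.01, adjusted p = 0.0233). The sources used here do not say whether counting used strand, so light-strand RNA and heavy-strand RNA across this gene cannot be told apart. The part of polyA selection in the level and spread of mt-Nd6 was not tested.

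The genes whose counts moved most like those of mt-Nd6 between libraries of a group were described without a test, over 24 libraries that share their preparation and depth. Ranked by Pearson r of log2 CPM after removal of group means among 14865 other genes, mt-Tp came at the top (r = 0.90), followed by mt-Tq (r = 0.88) and Malat1 (r = 0.88). mt-Tp and mt-Tq are tRNA genes of the light strand, like mt-Nd6, with 545 and 544 counts in all 24 libraries together. Malat1, a nuclear long noncoding RNA, had 994.0, 1526 and 1677 CPM in control cells with 7 d DOX, and its low library there was the same replicate 1 in which mt-Nd6 was low. Gm42418, a predicted gene, went against mt-Nd6 (r = -0.75), with 583.0, 361.2 and 341.6 CPM in those libraries. For the other counted members r lay between -0.45 for mt-Nd5 and 0.00.

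**Figure D5:**
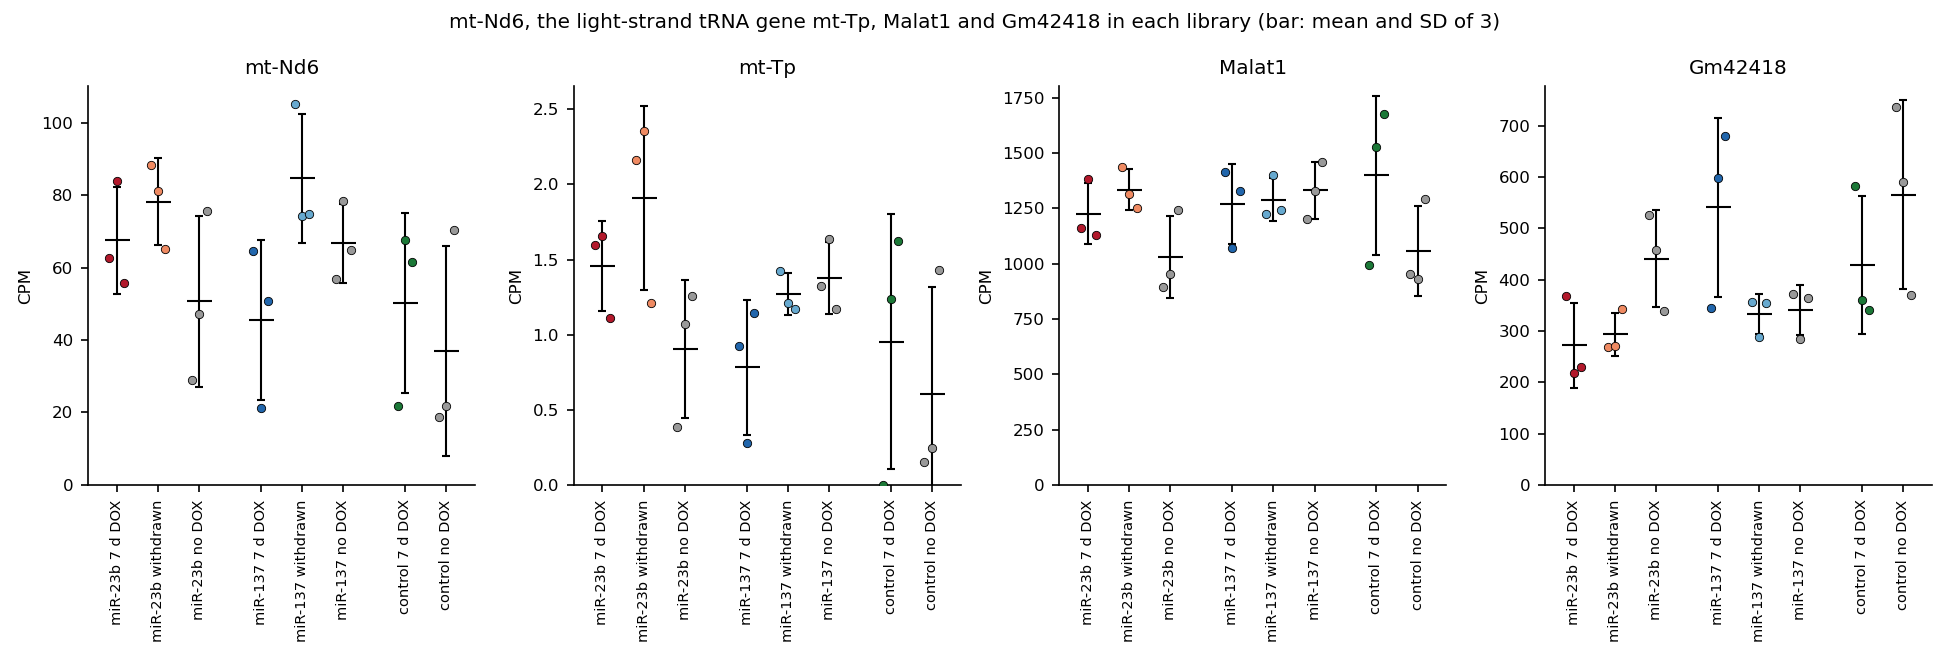
CPM of mt-Nd6, mt-Tp, Malat1 and Gm42418 in each library by line and treatment, with the mean and SD of 3. Replicate 1 of control 7 d DOX has the lowest mt-Nd6 of its group, at 21.8 CPM, with the lowest mt-Tp and Malat1 and the highest Gm42418.

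The nuclear genes whose products work with the members were read from lists, and counts and values follow the order miR-23b, miR-137 and control line, each for 7 d DOX against no DOX by edgeR. Over all genes tested, 28.6% were lower and 28.8% higher in miR-23b cells, 21.8% and 21.0% in miR-137 cells, and 19.3% and 18.5% in control cells. In complex IV, 7 of 11 nuclear subunit genes were lower in miR-23b cells, 2 in miR-137 cells and 9 in control cells, and 0 were higher in any line. Cox5a, a complex IV subunit, averaged 69.1 ± 7.93 CPM with 7 d DOX and 92.4 ± 10.9 with no DOX in miR-23b cells (-0.42, SE 0.08, adjusted p = 1.46e-05), and differed by -0.25 in miR-137 cells and -0.53 in control cells. In complex I, 14 of 36 genes were lower and 4 higher in miR-23b cells, 4 and 6 in miR-137 cells, and 6 and 2 in control cells. The complex I counts in miR-137 and control cells lie near or below the shares over all genes. So do the complex IV counts in miR-137 cells. Ndufa6, an accessory subunit of complex I, differed by -0.60, -0.26 and -0.35. The median log2 change of the complex I list was -0.06, 0.01 and -0.04, against -0.13, -0.14 and -0.20 for the 7 counted mitochondrial genes.

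Complex III had 5 of 9 genes lower in miR-23b cells, 4 in miR-137 cells and 6 in control cells, and 0 higher in any line. The ATP synthase had 10 of 16 lower and 0 higher in miR-23b cells, 6 and 3 in miR-137 cells, and 8 and 0 in control cells. Uqcrq of complex III differed by -0.48, -0.19 and -0.28, and Atp5b, the catalytic beta subunit of the ATP synthase, by -0.36, -0.24 and -0.22. Complex II, which has no mitochondrially encoded subunit, had 3, 1 and 2 of its 4 genes lower and 0 higher.

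Of 26 genes for synthesis and handling of mitochondrial RNA, 9 were lower and 6 higher in miR-23b cells, 9 and 0 in miR-137 cells, and 4 and 0 in control cells. The counts in miR-23b cells, and the lower count in control cells, lie near the shares over all genes. Lrpprc, whose product binds mitochondrial mRNAs, averaged 141.3 ± 2.83 CPM with 7 d DOX, 167.0 ± 3.91 when withdrawn and 213.3 ± 6.12 with no DOX in miR-23b cells (SD, n = 3). Lrpprc differed by -0.59 (SE 0.03, adjusted p = 1.25e-18), -0.55 and -0.45 with 7 d DOX, and after withdrawal by -0.35 in miR-23b cells and -0.44 in miR-137 cells. Polrmt, the mitochondrial RNA polymerase, was higher in miR-23b cells with 7 d DOX (0.35, SE 0.05, adjusted p = 2.64e-08). Tfb1m, which methylates the small rRNA, was lower there (-0.36, SE 0.09, adjusted p = 5.00e-04). Among 78 tested genes of the mitochondrial ribosome, 42 were lower and 5 higher in miR-23b cells, 20 and 4 in miR-137 cells, and 8 and 3 in control cells. Of all genes tested, 28.6%, 21.8% and 19.3% were lower in these lines, and 28.8%, 21.0% and 18.5% higher. Only the lower count of this list in miR-23b cells lies well above its share.

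Of 13 mitochondrial proteases and chaperones, 7 were lower and 1 higher in miR-23b cells, 6 and 1 in miR-137 cells, and 5 and 1 in control cells. Lonp1, a matrix protease, differed by -0.73, -0.53 and -0.43, and Hspa9, a matrix chaperone, by -0.61, -0.41 and -0.25. Of 13 genes for upkeep of mitochondrial DNA, 7 were lower and 2 higher in miR-23b cells, 3 and 3 in miR-137 cells, and 2 and 4 in control cells. The counts of this list in miR-137 cells, and the lower count in control cells, lie near the shares over all genes. Exog, a mitochondrial nuclease, was higher in miR-137 cells (0.48, SE 0.09, adjusted p = 1.22e-05) and in control cells (0.53, SE 0.09, adjusted p = 3.21e-06). Ppargc1a, a coactivator of mitochondrial biogenesis genes, differed by -0.49, -1.95 and -1.23 with 7 d DOX, and after withdrawal by -0.93 in miR-23b cells and -1.67 in miR-137 cells. Its levels were low, at 2.63 ± 0.143 CPM with 7 d DOX and 10.1 ± 0.848 with no DOX in miR-137 cells.

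Of 13 genes for membrane insertion and complex IV assembly, 2 were lower and 1 higher in miR-23b cells, 3 and 3 in miR-137 cells, and 3 and 2 in control cells. These counts lie near or below the shares over all genes. Coa3, an assembly factor for complex IV, differed by -0.82 (SE 0.04, adjusted p = 1.43e-18) in miR-23b cells. Of 9 mitochondrial translation factors, 2 were lower and 1 higher in miR-23b cells, 3 and 0 in miR-137 cells, and 1 and 1 in control cells. With so few genes, these counts also lie near or below those shares. Of 6 regulators of biogenesis, 3 were lower and 0 higher in miR-23b cells, 4 and 0 in miR-137 cells, and 2 and 1 in control cells.

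Without DOX, 0 of the 7 counted genes were called between either miRNA line and the control line by edgeR or by DESeq2. Among all genes tested, 2.78% were lower and 3.59% higher in the miR-23b line, and 0.814% lower and 1.89% higher in the miR-137 line. At an unadjusted p below 0.05 edgeR gave 2 genes in each. The TPM table called 0 of 10 genes in either line, against 1.64% lower and 0.849% higher of all genes in the miR-23b line and 0.300% lower and 0.472% higher in the miR-137 line. mt-Cytb was nearest in the miR-23b line (0.12, SE 0.04, adjusted p = 0.0854), with 4546, 4649 and 4411 CPM against 3971, 4151 and 4392 CPM in control cells. Without control no DOX replicate 3, mt-Cytb (0.16, adjusted p = 0.041) and mt-Nd6 (1.34, adjusted p = 0.0276) passed in the miR-23b line and mt-Nd6 (1.74, adjusted p = 0.00678) in the miR-137 line. Of the 8 counted mitochondrial genes outside the 10, mt-Rnr2 was called lower in the miR-23b line (-0.15, adjusted p = 0.00446). The miR-137 line had 0 such calls.

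The protein-coding genes outside the mitochondrial DNA with the pattern most like the mean log2 CPM of the 7 counted members were ranked among 13032 by Pearson r over the 8 group means. They were Ptp4a2 (r = 0.99), Nbas (r = 0.94), Lgr4 (r = 0.94), Rnf6 (r = 0.94) and Trim37 (r = 0.93). These r values describe 8 points that share their libraries and carry no test, and the mean they follow includes mt-Nd6.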

How the data were processed

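PolyA-selected RNA from βTC3 cells was sequenced in 24 libraries. The deposited count table holds whole-number counts per gene, with no normalization by the authors, and the deposited TPM table holds TPM per gene, a per-length share of the library that sums to 999999.26 to 1000001.26 per library. Per the submitters' processing notes, the tools were STAR 2.4.0g, RSEM 1.2.19, featureCounts, cutadapt 1.3 and HTSeq 0.6.1, and the builds GRCm38 and mm10. The sources used here do not give their settings, which tool made each table, or whether counting used strand. Reads that align to more than 1 place took 25.4% to 27.7% of each library, reads in no gene 9.62% to 12.1% and ambiguous reads 0.741% to 0.779%, and none of these enter a gene's count. The TPM of a gene with an identical copy rests on an estimate that divides reads between copies.

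Counts were tested with edgeR 4.0.16 in R 4.3.3 (TMM scaling, filterByExpr with the group design, quasi-likelihood F test). All 24 libraries and 14866 genes entered 1 fit with 8 group means, and p-values were adjusted by Benjamini-Hochberg over all genes in each of 12 comparisons. CPM are counts scaled to the TMM-adjusted library size, and log2 CPM use a prior count of 2. TPM were tested with limma 3.58.1 on log2(TPM + 1), for 15671 genes at 0.5 TPM or more in 3 libraries. This is an alternative for the counted genes and the only measure of mt-Co2, mt-Atp6 and mt-Co3. Fold changes on that scale are slightly understated at low TPM, and TPM are shares, so the median of all genes is printed where it moves. DESeq2 1.42.0, other scaling, the filter, a replicate block, fits on the groups compared alone and the loss of each library were alternatives, and all tools were tested on simulated counts.

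Shared sequence was found with Python 3.11.15 by looking up every 50-base window of each mitochondrial gene, and windows of 75 and 100 bases. The search covered both strands of 141730 annotated transcripts outside the mitochondrial DNA, and not the nuclear genome between them. Named nuclear partners come from the up to 3 called genes of each list with the largest change in each comparison of 7 d DOX with no DOX, and up to 2 in others, and the 5 most alike in pattern are named by Pearson r. Only some of the genes that this rule allows are described. The members and lists were chosen with earlier results of these data known. Replicate numbers were not used to pair the libraries in the main fit. Same-numbered libraries of compared groups correlated at only -0.05 to 0.08 after removal of group means. Whether same-numbered cultures were handled together is not in the labels.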

Additional observations from a re-analysis of the deposited data

Results flagged for a closer look

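Of the differences between lines in the response of a member to DOX, 4 passed the test of the difference itself. For the miR-23b response minus the control response these were mt-Nd1 (log2 difference 0.238, SE 0.074, adjusted p = 0.00995), mt-Co1 (0.258, SE 0.051, adjusted p = 9.60e-05) and mt-Cytb (0.171, SE 0.060, adjusted p = 0.023), all from edgeR. For the miR-23b response minus the miR-137 response it was mt-Co1 (0.196, SE 0.051, adjusted p = 0.00236). The mt-Co1 difference from the control line passed under every alternative that was run. In the same miR-23b libraries the summed level of beta cell markers was 12620 to 13280 CPM with 7 d DOX and 16100 to 16280 CPM with no DOX, against 15050 to 15810 and 14980 to 15320 CPM in the control line, and its part in these differences was not tested.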

How the results depend on the processing

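Over 1302 values of the 7 counted genes under alternatives, no called change reversed its direction, and 41 changed sign with neither value called. Of 84 values per setting, DESeq2's size factors in edgeR changed 0 calls, scaling without the mitochondrial genes added 1, the fits on the groups compared alone added 10 and omission of the filter on low counts added 27. DESeq2 lost 5, and the TPM table added 7 and lost 3 with either pseudocount. Without the filter, 7 genes were called for miR-23b 7 d DOX, 5 for miR-137 7 d DOX, 5 for the miR-23b and 6 for the miR-137 response minus the control response, 4 for the miR-23b minus the miR-137 response, and 3 for each line without DOX, against 4, 3, 3, 0, 1, 0 and 0. The cause was not tested. DESeq2 called 1 gene for the miR-23b minus the control response. For the miR-137 minus the control response, 1 gene was called on scaling without the mitochondrial genes, 1 with a replicate block and 1 on the groups compared alone, a setting that called 2 for the miR-23b minus the miR-137 response and 2 for the miR-23b line without DOX. With either pseudocount, 3 of the 7 genes were called in TPM for the miR-23b minus the miR-137 response, and 6 for miR-23b withdrawn against 7 d DOX.

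Leaving out 1 library at a time gave 2 to 5 calls for the miR-23b minus the control response, 0 to 4 for the miR-137 minus the control response, 1 to 2 for the miR-23b minus the miR-137 response, and 0 to 2 and 0 to 1 for the miR-23b and miR-137 lines without DOX. The block on the replicate number added the calls of mt-Nd4 for the miR-137 minus the control response (0.23, adjusted p = 0.0408) and of mt-Nd5 for miR-23b 7 d DOX (-0.13, adjusted p = 0.0494) and changed no other. Over the whole table, 947 genes were called for the miR-23b line without DOX and 402 for the miR-137 line, against 390 and 121 on log2(TPM + 1) and as few as 465 and 170 without 1 library. Relative to the counts, TPM shifted the median over 13422 genes by 0.11 for the miR-23b minus the miR-137 response and by -0.11 for miR-23b withdrawn against 7 d DOX. The shift was 0.10 for miR-23b 7 d DOX against no DOX and 0.10 for the miR-23b minus the control response. For mt-Nd6, with 356 to 2437 counts per library, the spread within groups (SD 0.65 on the log2 scale) set the limit. Low counts limited the tRNA genes, with 0 to 84 counts per library in those tested other than mt-Tw. Spread within groups limited mt-Tp and mt-Tq as well. mt-Tp had 0, 1.24 and 1.63 CPM in control cells with 7 d DOX, and mt-Tq 0.200, 0.305 and 2.33 CPM with no DOX.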

Other observations

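Protein-coding mitochondrial genes outside the 10, and the tRNA genes with few or no counts, are given as levels. mt-Atp8, the other ATP synthase gene of the mitochondrial DNA, had 0 counts in all 24 libraries and 2268 to 3508 TPM. mt-Nd4l, a complex I gene, had 0 counts and 847 to 1223 TPM, and mt-Nd3, another complex I gene, had 8 counts in all and 878 to 1337 TPM. Of the 22 tRNA genes, 6 passed the filter on low counts, 10 had 0 counts, and all 22 are listed at 0 TPM. mt-Nd4l and mt-Nd3 have annotated copies on chromosome 1, Gm10222, which is identical over 294 bases, and Gm28438, which differs from mt-Nd3 at 1 base (T3C, counted from the first base of mt-Nd3). No 50-base window of mt-Atp8 occurred in an annotated transcript outside the mitochondrial DNA. Nuclear sequence between annotated transcripts was not searched, so a copy there could not be seen. The cause of the count of 0 for mt-Atp8 was not tested.

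The identical nuclear copies of mt-Atp6, mt-Co2 and mt-Co3 gave nearly the same TPM as the genes they copy. Gm10925 lay at 4180 to 6210 TPM, Gm28661 at 3758 to 4929 TPM and Gm28437 at 2922 to 3881 TPM. Gm29216, which differs from mt-Co1 at 6 bases, lay at 4481 to 6318 TPM, against 3574 to 5016 TPM for mt-Co1. TPM relative to CPM per kilobase had a median of 0.523 for mt-Nd1, 0.552 for mt-Nd2, 0.476 for mt-Nd5 and 0.510 for mt-Cytb, which share few or no windows with other transcripts. It was 0.813 for mt-Co1 and 1.26 for mt-Nd4, the counted genes with the most shared windows.

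The mitochondrial ribosome was the longest of the nuclear lists. In miR-23b cells 40 of its 78 genes were higher and 3 lower when withdrawn than with 7 d DOX, against 26.4% higher and 25.8% lower of all genes tested. In miR-137 cells 18 were higher and 2 lower, against 14.7% and 14.8%. Withdrawn against no DOX, 8 were lower and 6 higher in miR-23b cells, against 20.6% and 19.2% of all genes, and 8 and 14 in miR-137 cells, against 21.7% and 21.6%. These counts lie at or below the shares over all genes. Mrpl36, a protein of the large subunit of the mitochondrial ribosome, differed by -0.76 with 7 d DOX in miR-23b cells and by -0.47 in control cells.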
